A study of Mus musculus with 21 samples.

Results

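The SOXF group of transcription factor genes, Sox7, Sox17 and Sox18, was examined in day 4 embryoid bodies that could be made to produce extra Sox7. The 3 genes were taken as named, out of 21887 protein-coding genes in the RefSeq table of GRCm38.p6, and every peak that touched the gene body or the 50 kb on either side of it was collected. This gave 111 of 219153 ATAC-seq peaks, which formed 21 of 51264 merged regions, 2 of 11005 anti-Myc ChIP-seq peaks and 0 of 689 input peaks. All samples were A2lox-Sox7-Myc cells, a mouse embryonic stem cell line derived from E14Tg2a that carries a doxycycline-inducible transgene for Myc-tagged Sox7, so the uninduced samples carry the transgene as well. ChIP-seq used unsorted cells and an antibody to the Myc tag, with 4 induced samples (doxycycline at 1 µg/ml for 24 h), 4 uninduced samples and 1 uninduced input sample without antibody. ATAC-seq, which maps open chromatin, used 2 induced and 2 uninduced samples each of cells sorted as PDGFRalpha-FLK1+, named endothelial progenitors (EPC) in the series, and as PDGFRalpha+FLK1+, named cardiac progenitors (CPC). The growth protocol names another sort, PDGFRalpha+FLK1-, and the groups here follow the label of each sample. The 4 RNA-seq samples were not analysed here, and nothing below measures expression.

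SOXF proteins carry an HMG box, a domain that binds the minor groove of DNA and bends it. In the embryo they act in the endothelium, where they share part of their work in forming vessels. Sox7 is also known from the primitive and visceral endoderm and from early blood and endothelial precursors, Sox17 from definitive endoderm and arterial and haemogenic endothelium, and Sox18 from early endothelium and the lymphatic lineage, where it activates Prox1.

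The ATAC lists held 23068 to 30732 peaks, with the shortest list in uninduced CPC replicate 2, and the ChIP lists held 772 to 2807. Read counts are not part of these lists, so the depth is unknown and a missing peak may reflect a shallow library. In the ChIP data, 75.8% of the peaks of uninduced list 4 started at the same base as a peak of uninduced list 2, against at most 1.04% in the other 35 pairs, so these lists were counted as 1 library. At Kdr, which encodes FLK1, EPC lists had 3 to 5 ATAC peaks in the same kind of window and CPC lists 2 to 4. At Pdgfra, EPC lists had 1 to 3 and CPC lists 2 to 3, so peak numbers at the sorting genes overlapped between the sorts. Over 6 endothelial marker genes, EPC lists had 23 to 29 peaks and CPC lists 12 to 26, over 5 blood genes EPC lists had 27 to 33 and CPC lists 19 to 25, and over 6 cardiac genes EPC lists had 18 to 28 and CPC lists 21 to 33. Over 4 endoderm genes EPC lists had 4 to 12 and CPC lists 4 to 11. Over 3 pluripotency genes EPC lists had 9 to 13 and CPC lists 8 to 11. Every one of these markers had a peak in some list.

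The ChIP comparison asked whether tagged Sox7 was found at its own gene or at those of its relatives. Around Sox17 no list had a peak. Around Sox7 and around Sox18, induced replicate 3, the longest ChIP list, had 1 peak each, and the other 3 induced lists, the 4 uninduced lists and the input had 0. Among all genes, 17% had a peak in an induced list and in no uninduced list within the same distance, and both SOXF genes with one had it from the same library.

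The Sox7 peak lay within the gene body (chromosome 14, 63947894 to 63948810), with a score of 43.9 that placed it 2457th of 2807 peaks. Scores are those of the authors' peak caller, MACS 1.4 per the submitters' processing notes, whose usual output is minus 10 times the log10 of a p-value. The transgene carries coding DNA of Sox7, and reads of that DNA from the gene and from the transgene cannot be told apart. Exons were not used, so whether a peak inside the gene body covers coding DNA was not checked. The Sox18 peak (chromosome 2, 181714728 to 181715729) lay 43.1 kb from Sox18 and overlapped Oprl1, the gene of the nociceptin receptor. Its score was 50.9, at place 2038 of 2807.

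Of the RefSeq promoter table (250 bases before to 50 after a start, GRCm38.p6), 5 of the 12 symbols in the windows had an entry, and Sox7, Sox17 and Sox18 were not among them. A pair of Oprl1 promoters lay wholly inside the induced ChIP peak, and are shown because they are the only listed promoters under a ChIP peak from end to end. Capitals mark ACAAT or ACAAAG, letters found in the SOX recognition sequence, read on both strands (reverse ATTGT and CTTTGT), with overlapping matches marked together.
Oprl1 promoter, first start, chr2:181714766-181715065, plus strand: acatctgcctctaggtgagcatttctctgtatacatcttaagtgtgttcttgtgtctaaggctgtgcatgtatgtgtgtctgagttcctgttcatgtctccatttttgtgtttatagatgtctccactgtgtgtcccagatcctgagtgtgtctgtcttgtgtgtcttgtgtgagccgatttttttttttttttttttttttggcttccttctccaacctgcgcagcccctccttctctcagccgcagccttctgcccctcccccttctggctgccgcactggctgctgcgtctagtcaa
Oprl1 promoter, second start, chr2:181715098-181715397, plus strand: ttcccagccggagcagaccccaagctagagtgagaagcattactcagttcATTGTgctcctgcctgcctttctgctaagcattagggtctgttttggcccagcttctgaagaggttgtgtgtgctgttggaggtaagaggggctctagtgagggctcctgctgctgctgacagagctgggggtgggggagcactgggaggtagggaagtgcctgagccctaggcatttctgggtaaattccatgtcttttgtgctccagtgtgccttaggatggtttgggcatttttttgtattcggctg
The first held neither motif and the second held 1 ACAAT match, on the minus strand. Another listed Oprl1 promoter (181715440 to 181715739) overlapped the peak but reached past its end. It held 1 ACAAT and 1 ACAAAG match and is not shown. Over all 32851 promoters of the table, 31% held ACAAT and 18.7% held ACAAAG, so a single match is common in windows of this length.

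Induced and uninduced lists were compared by the exact permutation test, two-sided, of the number of peaks per gene window. The difference was 0.25 peaks per list for Sox7 and for Sox18, with a mean of 0.25 ± 0.5 in induced lists (SD, n = 4) and 0 in the 3 uninduced libraries (exact permutation p = 1, adjusted p = 1). The smallest p that 4 against 3 libraries allow is 0.0571, so no gene of the 5663 with a ChIP peak could pass, 0 had an unadjusted p under 0.05 and 0% were called. Without induced replicate 3, no SOXF gene had a ChIP peak.

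Beyond 50 kb, the nearest ChIP peaks were again single calls. They lay 95.3 kb from Sox7 and 91.2 kb from Sox18, each in 1 induced list, and 120 kb from Sox17, in 1 induced list at a score of 40.04. A list of 666 regions that carries the name Sox7 was deposited with no description of how it was made. The authors' deposited list had 0 regions in the 3 windows, while 5.14% of all genes had one. Its nearest regions were 604 kb from Sox7, 199 kb from Sox18 and 17969 kb from Sox17. Among 16 other SOX genes, 3 had a region of the authors' deposited list in the window, Sox13, Sox30 and Sox5. So did 5 of 26 vascular genes (Prox1, Erg, Notch4, Egfl7 and Ets1) and 6 of 18 endoderm genes, among them Gata6 and Ttr.

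**Figure D1:**
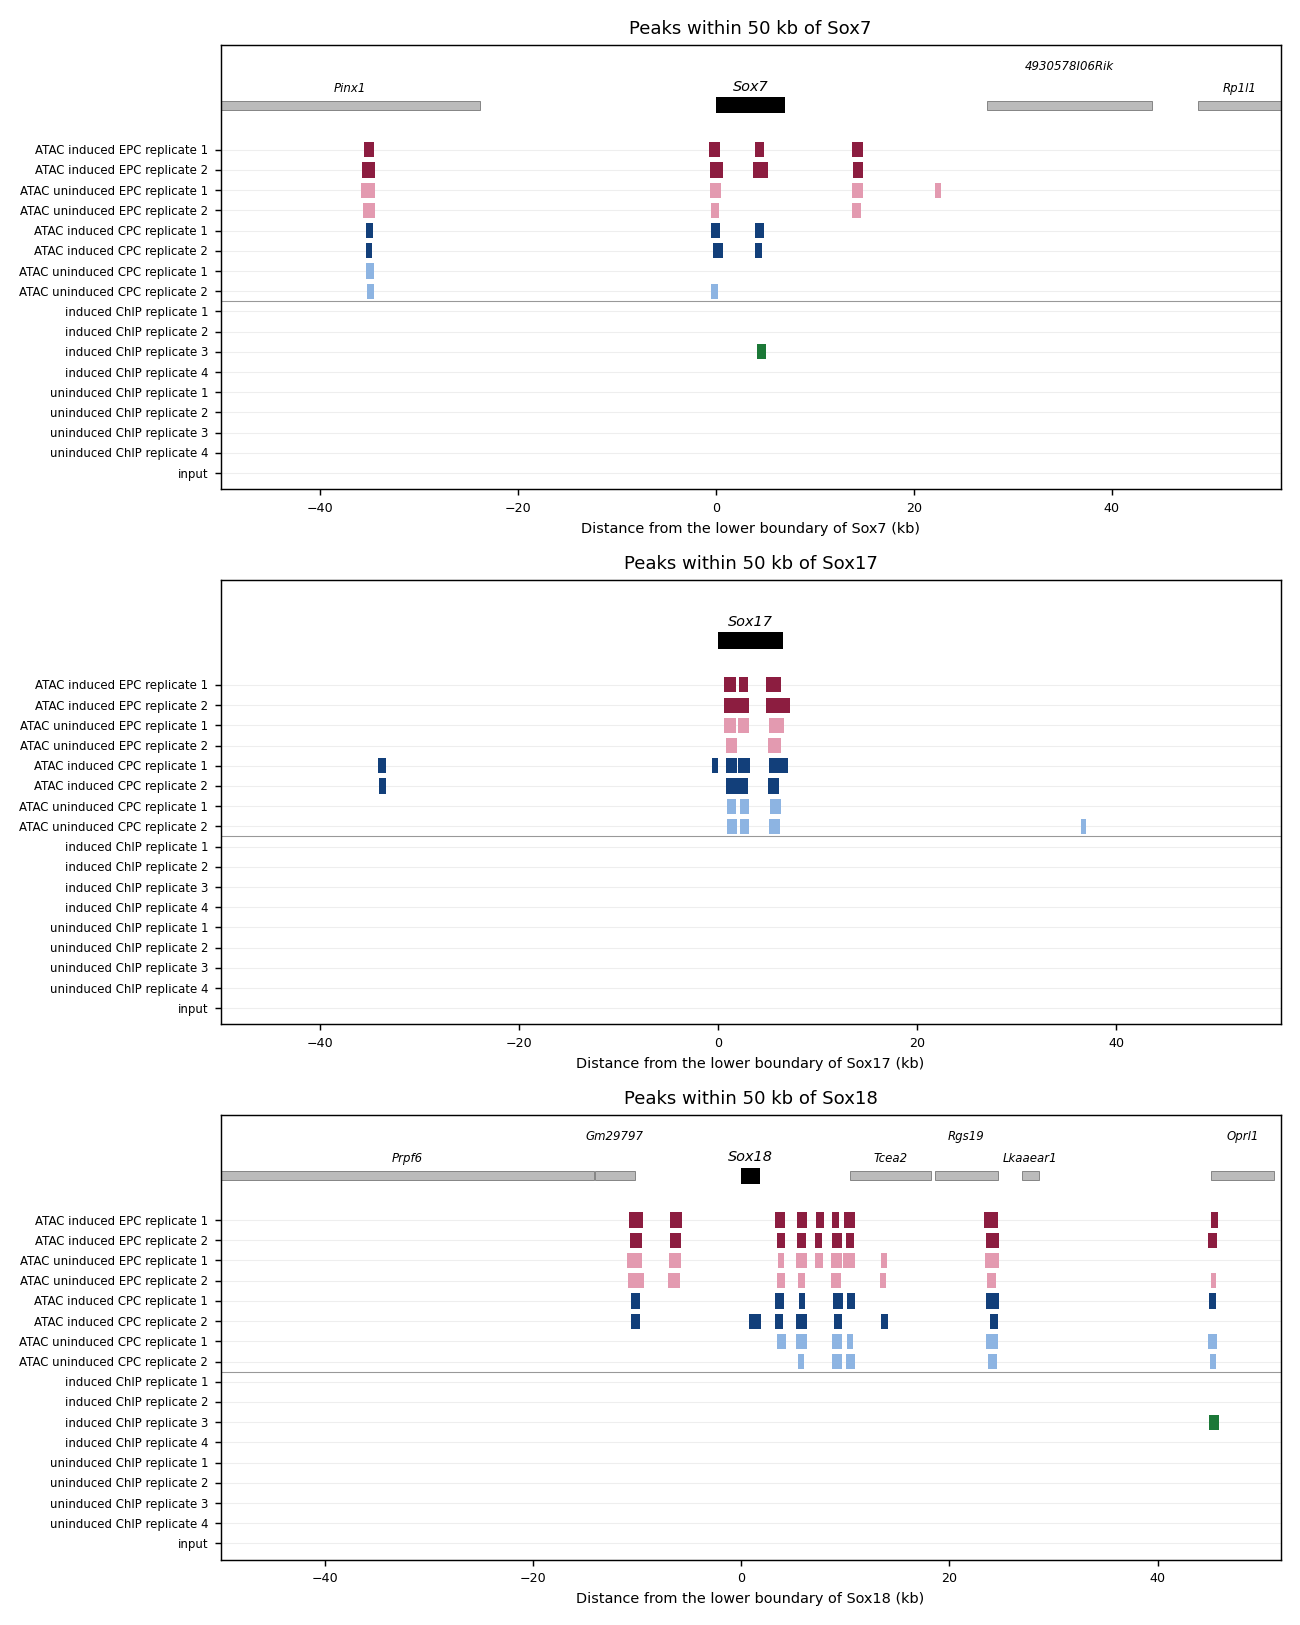
Peaks within 50 kb of Sox7, Sox17 and Sox18, by library. The horizontal axis gives the distance from the lower boundary of the gene in kb, each row is 1 library (ATAC above the line, ChIP and input below it), each block is 1 peak to scale, and grey bars are neighbouring genes. The block that lies wholly inside Sox7 (region 3) is present in the 4 induced ATAC lists and in 0 uninduced ones. Blocks across the lower boundary of Sox7 (region 2) appear in uninduced lists too. The blocks above Sox7 nearest to it appear in EPC lists alone.

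The windows differed in what else they held. Sox17 stood alone, with 0 other protein-coding genes within 50 kb, where the median gene has 3. Sox7 had 3 neighbours, Pinx1, which encodes an inhibitor of telomerase, 4930578I06Rik and Rp1l1, a photoreceptor gene. Sox18 had 6, Prpf6 and Tcea2, which encode a splicing factor and a transcription elongation factor, Gm29797, Rgs19, a regulator of G protein signalling, Lkaaear1 and Oprl1. Of the 21 ATAC regions, 5 overlapped a SOXF gene body and 6 the body of a neighbour, with 5 of those 6 in the Sox18 window.

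Around Sox7 there were 5 ATAC regions, numbered along the chromosome. Region 3 (chromosome 14, 63947488 to 63948950), within the gene body, had scores of 170 and 210 (170.15 and 209.85) in induced EPC and 81.9 and 61.6 in induced CPC, and no peak in the 4 uninduced lists. It was thus gained, with a peak in both induced and no uninduced list, in both sorts, as were 1.16% of all ATAC regions. All 917 bp of the ChIP peak of induced replicate 3 lay inside the merged region. Among single ATAC peaks, only that of induced EPC replicate 2 covered the ChIP peak whole. The same limit applies to any coding DNA in the region: reads of the transgene and of the gene cannot be told apart there. In the authors' deposited lists of regions open with induction only, the same place appeared for CPC (63947700 to 63948367) and for EPC (63947698 to 63948595). Each entry has the bounds shared by both induced peaks of that sort, so it restates these calls and adds no separate evidence.

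Region 2 (63943031 to 63944410) crossed the lower boundary of Sox7. It was called in both induced and both uninduced EPC lists, with scores of 269 and 143 in induced EPC and 164 and 69.7 in uninduced EPC. In CPC it was called in both induced lists (93.3 and 94.3) and in uninduced replicate 2 alone (69.1). The only list without it was uninduced CPC replicate 1, so the region was called before induction in at least 1 list of each sort. The single uninduced CPC peak stood in the top 78.2% of its list, low among its scores. Region 2 lies partly outside the Sox7 body, and the limit set by the transgene applies to any coding DNA that it covers, which was not checked.

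Region 4 (63957438 to 63958592), 6.71 kb above the gene with no other gene nearer, separated the sorts. Its scores were 263 and 360 in induced EPC and 524 and 495 in uninduced EPC, and none of the 4 CPC lists had a peak there. Such EPC-only regions, with a peak in every EPC and no CPC list, made up 2.1% of all ATAC regions. In the uninduced EPC lists this peak stood in the top 22.1% and 15.9% of scores, so it was far from the calling limit of about 50.

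Region 1 (63907877 to 63909342) lay inside Pinx1, 34.4 kb from Sox7, and was called in all 8 lists. Its scores were 513 and 718 in induced EPC and 745 and 491 in uninduced EPC, against 63.1 and 71.7 in induced CPC and 165 and 118 in uninduced CPC. It stood in the top 14% to 19.9% of every EPC list and between the top 47.4% and 85.4% of the CPC lists, which do not overlap. Region 5 (63965794 to 63966420) was a single call in uninduced EPC replicate 1 with a score of 67.9.

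Around Sox17 there were also 5 regions, and those on the gene were open everywhere. Region 4 (chromosome 1, 4495744 to 4498095), across the upper boundary, was called in all 8 lists, with highest scores of 634 and 749 in induced EPC and 1217 (1216.56) and 527 in uninduced EPC. In induced CPC they were 287 and 121, and in uninduced CPC 144 and 143. The peak stood in the top 8.71% to 15.8% of every EPC list and between the top 29.7% and 54.9% of the CPC lists, again without overlap. Over the 13096 regions called in all 8 lists, 7.19% had a higher place in every EPC list than in every CPC list and 5.84% a lower one. Of the 6 such regions at SOXF genes, 2 were higher in every EPC list and 0 lower. Lists differ in length, so a place in a list describes that list and measures no change between samples.

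Region 3 (4491467 to 4494092), inside the gene, held a pair of peaks in most lists that 1 wide peak in induced EPC replicate 2 joined. Its highest scores were 287 and 511 in induced EPC, 316 and 177 in uninduced EPC, 200 and 202 in induced CPC and 91.2 and 97.3 in uninduced CPC. The places of EPC and CPC lists overlapped. The authors' deposited list for induced CPC holds a piece of 107 bp here (4492885 to 4492991), although peaks of all 8 lists lie in the same merged region.

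Region 1 (4456788 to 4457593), 33.3 kb below Sox17, was called in both induced CPC lists, with scores of 123.19 and 87.06, and in none of the uninduced CPC or EPC lists. It was gained in CPC, as were 5.75% of all ATAC regions. The authors' deposited list for induced CPC gives it as the stretch shared by these peaks (4456870 to 4457554), which restates the same calls. Regions 2 and 5 were single calls, in induced CPC replicate 1 with a score of 70.7 and in uninduced CPC replicate 2 with a score of 71.1.

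Around Sox18 there were 11 regions, of which only 1 touched the gene body itself. That one, region 3 (chromosome 2, 181670628 to 181671728), was called in induced CPC replicate 2 alone, with a score of 74.1. The body of Sox18 thus had no peak in 7 of the 8 lists, whereas Sox17 had peaks in its body in all 8 and Sox7 in 7. These bodies differ in length (1804 bp for Sox18, 6499 bp for Sox17 and 7027 bp for Sox7), so the counts are not on equal terms. Reads of coding DNA inside Sox7 cannot be told apart from those of the transgene.

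Region 2 (181662805 to 181664116), 5.72 kb below Sox18 and 3.19 kb from Gm29797, was EPC-only. Its scores were 261 and 167 in induced EPC and 383 and 328 in uninduced EPC, with no peak in any CPC list. Region 1 (181658885 to 181660468), 9.37 kb from Sox18 at the upper end of Gm29797, was open in EPC whatever the doxycycline state, with scores of 317 and 143 in induced EPC and 681 and 535 in uninduced EPC. In CPC it was called with induction only, with scores of 98.3 and 143 in induced CPC and no peak in uninduced CPC. The authors' deposited list for induced CPC gives it with the bounds shared by both induced CPC peaks (181659294 to 181660147), which restates these calls. It was gained in CPC by the rule used here, at a place that EPC already had open.

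Of the other Sox18 regions, region 10 crossed the upper boundary of Rgs19, over listed promoters of that gene. It was 1 of 3 called in all 8 lists, with region 5 at 3.5 kb from Sox18 and region 7 at 6.81 kb, next to Tcea2. Their score ranges overlapped between the sorts, for example 373 and 218 in induced EPC, 413 and 107 in uninduced EPC, 282 and 279 in induced CPC and 195 and 80.1 in uninduced CPC for region 7. Region 4, 1.41 kb above Sox18, was missing from uninduced CPC replicate 2 alone. Region 6 (181676899 to 181677764) was called in 3 EPC lists and no CPC list, at scores of 55.5, 56.4 and 87.2, near the calling limit. Region 9, inside Tcea2, was lost in EPC by the rule, with scores of 58.3 and 52.3 in uninduced EPC and none in induced EPC, and 1.82% of all ATAC regions were lost in this way. Region 11, at Oprl1, overlapped the ChIP peak described above and was called in 6 lists, with scores of 62.6 to 91.7. Region 8, at the lower boundary of Tcea2, was also called in 6.

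**Figure D2:**
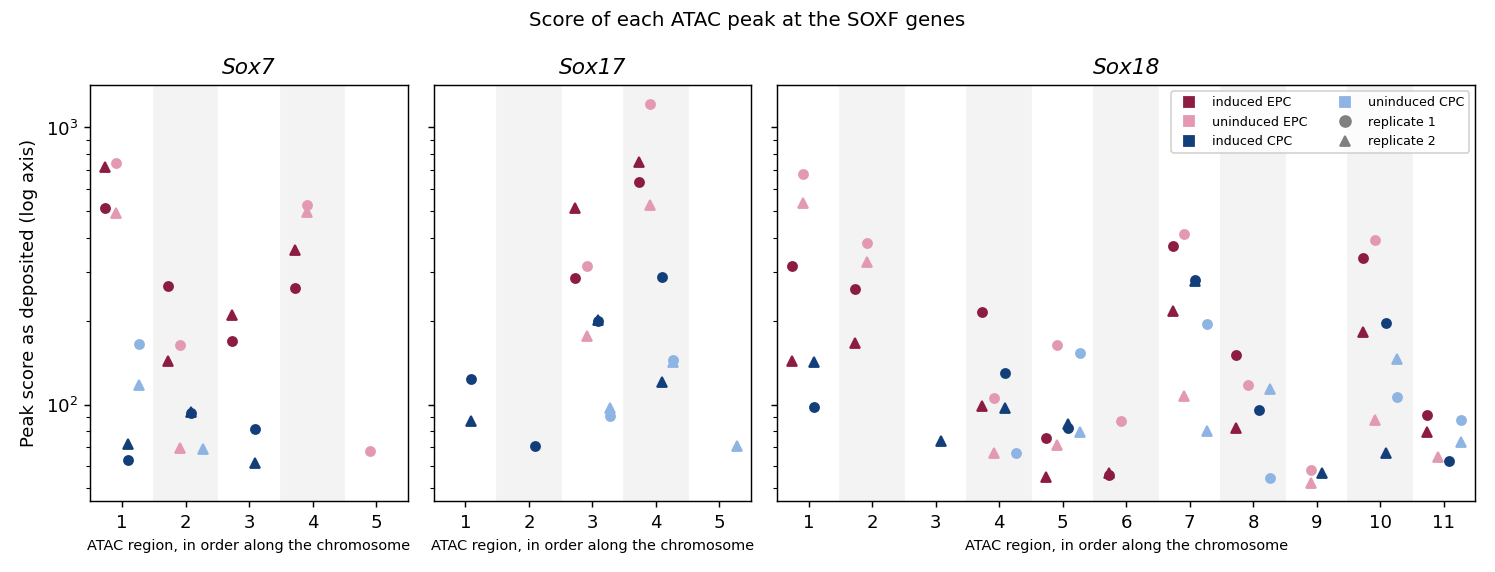
Score of the highest peak of each library in each ATAC region around Sox7, Sox17 and Sox18 (log axis), with regions numbered along the chromosome. Colours give the sort and the doxycycline state and symbols the replicate. EPC scores lie above all CPC scores in Sox7 region 1 and Sox17 region 4, and Sox7 region 4 and Sox18 region 2 hold EPC points alone.

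Counted together, 3 of the 21 regions (14.3%) were gained in CPC, 1 at each gene, against 5.75% of all regions. In EPC 1 (4.76%) was gained, where 6.12% of all regions were. None was lost in CPC, against 2.35% of all regions, and 1 was lost in EPC, against 1.82%. EPC-only regions numbered 2 (9.52%), against 2.1% of all regions, and CPC-only regions 0, against 1.8%. The 6 regions in every list were 28.6% of the 21, and 25.5% of all regions were in every list. Of the 21, 8 were called in more EPC than CPC lists, against 35.4% of all regions, and 4 in more CPC than EPC lists, against 31.3%. More induced than uninduced lists called 8 of the 21, against 38.6% of all regions, and more uninduced than induced lists called 3, against 23.3%. With so few regions these shares describe the 3 places only, and no test was made on them.

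The effect of induction on the number of ATAC peaks was tested for every gene, by relabelling libraries within each sort. Sox7 had 4 and 4 peaks in induced EPC, against 4 and 3 in uninduced EPC, and 3 and 3 in induced CPC, against 1 and 2 in uninduced CPC. Sox17 had 3 and 3 in induced EPC, against 3 and 2 in uninduced EPC, and 5 and 4 in induced CPC, against 3 and 4 in uninduced CPC. Sox18 had 9 and 9 in induced EPC, against 9 and 8 in uninduced EPC, and 7 and 7 in induced CPC, against 6 and 5 in uninduced CPC. Both induced CPC lists lay above both uninduced CPC lists at Sox7 and at Sox18, as at 14.6% of all genes tested, and in EPC the groups overlapped at all 3 genes, while 14.9% of all genes had both induced EPC lists above both uninduced ones.

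Over both sorts Sox7 averaged 3.5 ± 0.577 peaks in induced and 2.5 ± 1.29 in uninduced lists (SD, n = 4 each), a difference of 1 peak (exact permutation p = 0.167, adjusted p = 1). Sox17 averaged 3.75 ± 0.957 in induced and 3 ± 0.816 in uninduced lists (SD, n = 4 each), a difference of 0.75 (exact permutation p = 0.333, adjusted p = 1). Sox18 averaged 8 ± 1.15 in induced and 7 ± 1.83 in uninduced lists (SD, n = 4 each), a difference of 1 (exact permutation p = 0.167, adjusted p = 1). None passed, and none could, since the smallest p of this design is 0.0556. Within 1 sort, where the smallest p is 0.333, the differences in CPC were 1.5, 1 and 1.5 for Sox7, Sox17 and Sox18 (exact permutation p = 0.333, 0.667 and 0.333), and in EPC 0.5 for each gene (exact permutation p = 1). At Sox17 every EPC list had regions 3 and 4 and no other, so its EPC difference reflects peaks split within these regions. Of all 19564 genes tested, 58.4% had more peaks in induced lists, the median difference was 0.25, and 3.81% had every induced list above every uninduced list in both sorts, which no SOXF gene did. The reverse order held at 0.184% of genes and at no SOXF gene. The induced lists were also longer, with 27979 to 30732 peaks in induced and 23068 to 27934 in uninduced lists, and with every list cut to the 23068 highest peaks the differences were 0.5 at Sox7, 0.25 at Sox17 and 0.25 at Sox18 (exact permutation p = 0.5, 1 and 1). With peaks in the body of Sox7 left out, the Sox7 difference was -0.25, so the higher number with induction rested on peaks that touch the gene body. Coding DNA there cannot be told apart from that of the transgene.

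The sorts were compared in the same way, relabelling within the doxycycline state. Sox18 averaged 8.75 ± 0.5 peaks in EPC and 6.25 ± 0.957 in CPC (SD, n = 4 each), a difference of 2.5 peaks, and every EPC list (8 to 9) lay above every CPC list (5 to 7). Sox7 averaged 3.75 ± 0.5 in EPC and 2.25 ± 0.957 in CPC (SD, n = 4 each), a difference of 1.5, and the lists met at 3 peaks. Sox17 ran the other way, with 2.75 ± 0.5 in EPC and 4 ± 0.816 in CPC (SD, n = 4 each), a difference of -1.25, and the lists met at 3 as well. All EPC peaks at Sox17 lay in its regions 3 and 4, so the EPC counts depended on how peaks were split within these regions. For Sox18 and Sox7 the exact permutation p was 0.0556, the smallest the design allows, and for Sox17 it was 0.111 (adjusted p = 0.761, 0.761 and 0.804). None passed, and 0% of all genes were called, with 0 under an unadjusted p of 0.05. Complete separation with EPC higher, as at Sox18, was seen in 3.36% of genes. Complete separation with CPC higher was seen in 1.7% of genes and at no SOXF gene.

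The direction at Sox17 depended on the measure. Counting only peaks with a score of 100 or more, EPC exceeded CPC by 0.25 peaks, and the length covered by peaks was 3715 ± 919 bp in EPC and 4020 ± 1173 bp in CPC (SD, n = 4 each). At Sox7 the covered length was 4185 ± 887 bp in EPC and 1807 ± 803 bp in CPC, and at Sox18 8363 ± 984 bp in EPC and 5323 ± 898 bp in CPC (SD, n = 4 each). Both of those differences had the direction of the peak number.

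**Figure D3:**
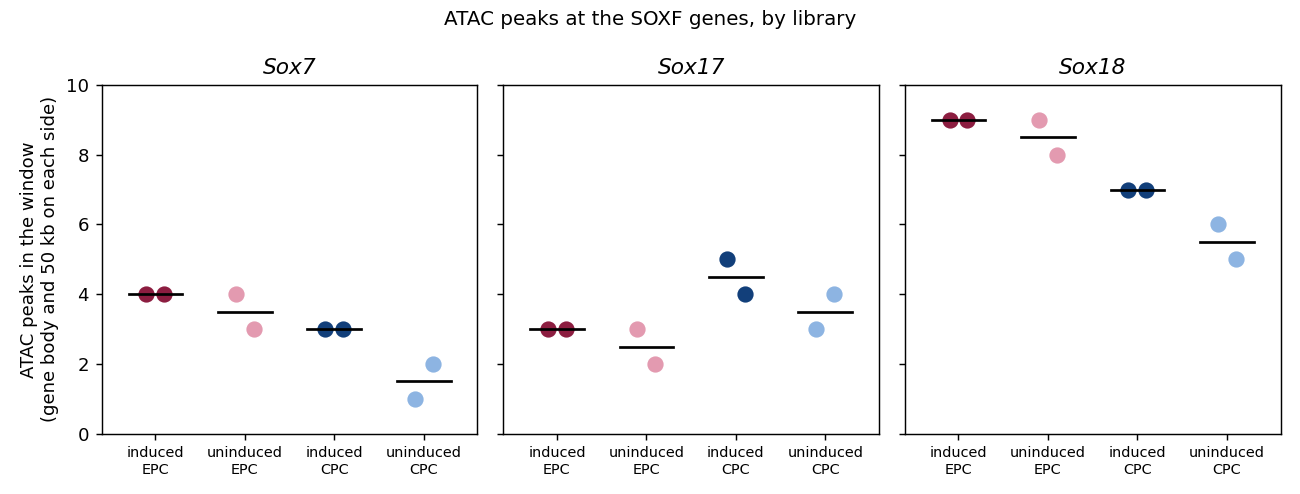
Number of ATAC peaks in the window of each SOXF gene (gene body and 50 kb on each side), by library. Points are libraries and lines are means of 2. The 4 EPC lists have 8 to 9 peaks at Sox18 and the 4 CPC lists 5 to 7, while at Sox17 the CPC lists have 3 to 5 and the EPC lists 2 to 3.

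Across the 3 genes the number of peaks per list was highest at Sox18, with a mean of 7.5, then 3.38 at Sox17 and 3 at Sox7. Sox18 had more peaks than the others in each of the 8 lists, while the ranges of Sox17 (2 to 5) and Sox7 (1 to 4) overlapped. The number at Sox18 exceeded that of 92.2% of the genes tested, and those at Sox17 and Sox7 exceeded 57.7% and 50.5%. With peaks in the bodies of neighbouring genes left out, a setting chosen after the data were examined, the EPC minus CPC difference at Sox18 was 1.75.

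By gene window, gained CPC regions were found at all 3 SOXF genes, against 18.5% of all genes. None of these 3 regions met the rule at a score of 100 or more, and the Sox18 one overlapped Gm29797. The Sox18 window also held more peaks than those of 92.2% of genes tested. Gained CPC regions were also found at 3 of 16 other SOX genes (Sox13, Sox4 and Sox5), 8 of 26 vascular genes and 9 of 18 endoderm genes. Gained EPC regions were found at Sox7 alone of the SOXF genes, against 19.6% of all genes, and at 8 other SOX genes, 12 vascular genes and 9 endoderm genes. A region gained in both sorts was found at Sox7, against 3.82% of all genes, at 2 other SOX genes (Sox13 and Sox5), at 5 vascular genes (Erg, Tek, Flt1, Efnb2 and Ets1) and at 4 endoderm genes. EPC-only regions were found at Sox7 and Sox18, against 7.58% of all genes, at 9 vascular genes and at 4 other SOX genes (Sox21, Sox5, Sox6 and Sox1), and at 1 endoderm gene, Eomes. CPC-only regions were found at no SOXF gene, against 5.02% of all genes, and at 1 gene of each other list (Sox13, Nrp2 and Cxcr4). Lost CPC regions were at no SOXF or other SOX gene, against 8.36% of all genes, at 1 vascular gene, Notch1, and at 3 endoderm genes (Gata4, Afp and Eomes). Lost EPC regions were at Sox18, against 7.07% of all genes, at 2 other SOX genes (Sox15 and Sox5), 5 vascular and 3 endoderm genes. A region present in every list was found at all 3 SOXF genes, against 71.4% of all genes, at 9 other SOX, 22 vascular and 13 endoderm genes. In the tests of peak number, 0 genes of any list passed, and the median EPC minus CPC difference was 0 for other SOX genes, 0.75 for vascular and 0.25 for endoderm genes, with 0.25 over all genes.

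Genes with the most similar pattern were sought by the Pearson correlation, over the 8 ATAC libraries, of the summed percentile rank of peaks in the window. For Sox7 they were Vapa, Frk and Sin3b (r = 0.996, 0.995 and 0.994 among 18332 genes), for Sox17 Ccar2, Gm9805 and Setd6 (r = 0.976, 0.969 and 0.964 among 18348), and for Sox18 Trim26, Pabpc4 and Cdpf1 (r = 0.989, 0.987 and 0.983 among 18316). These are the highest of many values over 8 points that share list length, and they are a description only.

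At the edge of the windows, the outermost ATAC regions inside lay 34.4 kb from Sox7, 33.3 kb from Sox17 and 43 kb (42.998) from Sox18, and the nearest regions outside lay 55.6, 63.3 and 50.4 kb away. The one outside the Sox7 window was called in 3 EPC lists and no CPC list, the one outside the Sox17 window in 3 CPC lists and no EPC list, and the one outside the Sox18 window in 4 EPC and 2 CPC lists.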

How the data were processed

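The members were given by name, and members, gene lists and tests were chosen with earlier results of these data known. Peak lists, 1 per library, were deposited by the authors, with peaks named MACS_peak and a score each. The build is GRCm38 (mm10) per the submitters' processing notes, which also name Trimmomatic, Bowtie2, SAMtools, MACS 1.4 and bedtools without roles. Filters and the control used for peak calling are not given in the sources used here. Of the 4 lists derived by the authors and deposited without a description, 2 hold positions only.

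From these, peaks were merged across lists of an assay where they overlapped by 1 bp or more (Python 3.11.15, numpy 2.4.6, pandas 2.3.3). Positions are 1-based. The gene table has no strand, so boundaries are called lower and upper, and exons were not used. Peaks per gene window (50 kb on each side) were compared by two-sided exact permutation tests with the smaller tail doubled (36 relabellings for ATAC, 35 for ChIP), for all genes with a peak, with Benjamini-Hochberg adjustment. The code was tested on simulated data. No fit gives a standard error, and nothing in the labels says that replicates came from separate cultures. The p-values therefore cover the spread among these libraries, which may be technical. All SOXF regions and all window neighbours are named, and the genes of most similar pattern are the 3 highest correlations over 1 Mb away with a peak in at least 4 lists. Alternatives were other windows, score limits, list lengths, measures, left-out libraries and pairing by replicate number.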

Additional observations from a re-analysis of the deposited data

Results flagged for a closer look

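Sox7 had 1 ChIP peak in induced replicate 3 and 0 in the other 3 induced lists, so 1 library stood apart from its group. Sox18 likewise had 1 ChIP peak in induced replicate 3 and 0 in the others. Induced replicate 3 has the longest ChIP list, 2807 peaks against 1061 to 1851 in the other induced lists, and with every list cut to the 772 highest peaks both peaks were absent (0 in all 4 induced lists). By chance about 1 in 20 groups of continuous values is picked out in this way, but that level does not hold for tied counts such as these: 2912 of the 5663 genes with a ChIP peak (51.4%) had peaks in 1 of the 4 induced lists only.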

How the results depend on the processing

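No difference at a SOXF gene passed 0.05 in any alternative except 1 of 217. That was EPC minus CPC at Sox18 with all 8 libraries relabelled freely (2.5 peaks, exact permutation p = 0.0286, against 0.0556 to 1 in its other alternatives), where the smallest possible p is lower by construction. Directions reversed in 7 cases. With peaks in the Sox7 body left out, induced minus uninduced was -0.25 at Sox7 and -0.5 in EPC alone. With a score of 100 or more it was -1 for Sox7 in CPC alone. With lists of equal length it was -0.5 for Sox18 in EPC alone. EPC minus CPC at Sox17 became 0.25 with a score of 100 or more and 13.95 on the summed percentile rank, and at Sox18 -0.25 in the gene body only. The causes of these reversals were not tested.

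Region counts also moved. With a score of 100 or more, 1 region was gained in CPC, 0 in both sorts, 1 was lost in CPC, 0 in EPC, and 1 was in every list. The region gained in CPC at this limit was Sox17 region 3, which all 8 lists called without the limit. None of the 3 regions gained in CPC without the limit met the rule with it. Sox7 region 3 then had a peak in 0 of 2 induced CPC lists, and Sox17 region 1 and Sox18 region 1 in 1 of 2. With lists of 23068 peaks, 0 were gained in both, 1 was lost in CPC and 0 in EPC, the Sox7 body region being called in 1 of 2 induced CPC lists. Within 10 kb, 0 were lost in EPC. Leaving out 1 library, which relaxes the rules, gave 3 to 5 gained in CPC, 1 to 3 gained in EPC, 0 to 2 lost in CPC, 1 to 2 lost in EPC and 2 to 3 EPC-only. The highest counts came without induced CPC replicate 1 (gained and lost in CPC), uninduced EPC replicate 1 (gained in EPC) and uninduced EPC replicate 2 (lost in EPC, EPC-only). Without uninduced EPC replicate 2, 2 were gained in EPC, and without uninduced CPC replicate 1, 1 was lost in CPC. Joining peaks at 50% overlap moved none of these counts past 1.5 times.

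Deviations of same-numbered samples correlated weakly across genes (-0.0115 to 0.108 in ATAC and -0.0985 to 0.0692 in ChIP). In ChIP, 1 of 4 induced samples correlated best with its own number. These correlations cannot show whether same-numbered samples shared a culture or batch, which was not tested. Uninduced replicate 2 had the shorter ATAC list in CPC (23068 against 27540 peaks) and in EPC (23694 against 27934). Induced replicate 2 had the shorter list in CPC and the longer in EPC. With a replicate block, EPC minus CPC at Sox18 stayed 2.5 (exact permutation p = 0.125, the smallest possible), and no call was gained or lost. Depth is unknown, so presence and absence of a peak near the calling limit cannot be read as open and closed.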
